A study of Mus musculus with 3 samples.

Results

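Maternal mRNA storage and decay genes were followed in the H3K36me3 landscape of mouse germinal vesicle (GV) oocytes. The set held 10 genes of the 21062 protein-coding genes that had at least 1 valid window: Zar1, Zar1l, Ybx2, Cpeb1, Btg4, Patl2, Eif4e1b, Lsm14b, Ddx6 and Cnot7. They were listed by name for their role in the storage and removal of maternal mRNA, with earlier results of these data known. For each gene, the 2 kb windows that overlapped its annotated body (GENCODE mouse release 21, GRCm38) were taken, together with those within 10 kb on both sides. This gave 172 body windows and 269 windows in all, of 1186323 valid windows.

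Native ChIP-seq for H3K36me3, in a protocol for ultra-low input, was carried out on 3 pools of GV oocytes (about 280 cells per pool) from wildtype C57BL6/Babr mice at day 25. There was 1 group and no treatment, so each comparison was made between genes or regions within the same libraries. The libraries held 7888140, 2692510 and 3166564 reads in valid windows for replicates 1, 2 and 3, and replicate 2 was prepared with less antibody. Values are RPKM as named by the authors. The reads in windows were 1.07 times the library total that the value of 1 read implies if values are CPM, reads per library total without division by length, and 2.13 to 2.14 times that total if they are RPKM of a 2 kb window. The values are therefore nearer to CPM per window, and only the name RPKM is kept here. A window was called enriched when its mean over the replicates was above 1. Each value averages many oocytes, so a weaker signal in every oocyte and a signal in fewer oocytes cannot be told apart. Nothing in the labels says that the pools came from separate mice, so the spread between replicates may be technical.

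The growing oocyte transcribes and stores mRNA for the time when transcription stops. Stored mRNAs are kept with short tails by RNA-binding proteins, and during maturation some are given longer tails and translated while others are deadenylated and degraded. H3K36me3 is laid down along transcribed gene bodies behind elongating RNA polymerase II, and in oocytes it is linked to DNA methylation of these regions. The authors propose that this link may be indirect. H3K4me3 marks promoters and also forms broad domains in oocytes, and H3K27me3 is the mark of Polycomb repression. ChIP-seq does not measure transcription, and no RNA was measured here.

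The sequences just upstream of an annotated start are shown for the genes on which the results turn: the gene with the lowest level (Zar1), its highly marked paralog (Zar1l), the gene with the highest level (Lsm14b), and 2 of the genes with a run of enriched windows that began near an internal annotated start (Btg4 and Patl2). They are given from 5′ to 3′ on the strand of the gene, in GRCm38.p6, with each CpG in capitals. Bases within exons annotated by GENCODE were left out, but those within RefSeq exons were not. Predicted RefSeq transcripts start upstream of the whole stretch of Zar1 and inside those of Zar1l and Lsm14b, so these stretches may hold transcribed bases. That of Patl2 was read from the genome and the others were taken from the RefSeq promoter table. They lie at chr5:72581255-72581334 (minus strand), chr5:150518165-150518409 (minus strand), chr9:51115751-51116000 (plus strand), chr2:122130312-122130561 (minus strand) and chr2:180024737-180024986 (plus strand).
Zar1: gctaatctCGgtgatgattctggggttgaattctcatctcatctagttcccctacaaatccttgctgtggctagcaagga
Zar1l: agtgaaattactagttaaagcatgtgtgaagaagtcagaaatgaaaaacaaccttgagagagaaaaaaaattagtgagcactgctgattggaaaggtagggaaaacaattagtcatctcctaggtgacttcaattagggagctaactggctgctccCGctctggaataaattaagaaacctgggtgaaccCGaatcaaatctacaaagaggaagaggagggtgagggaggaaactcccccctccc
Btg4: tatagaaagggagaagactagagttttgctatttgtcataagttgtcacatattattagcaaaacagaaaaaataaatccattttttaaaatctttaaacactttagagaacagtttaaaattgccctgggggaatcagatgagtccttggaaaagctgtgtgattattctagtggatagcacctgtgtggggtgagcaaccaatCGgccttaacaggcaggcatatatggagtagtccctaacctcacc
Patl2, internal start: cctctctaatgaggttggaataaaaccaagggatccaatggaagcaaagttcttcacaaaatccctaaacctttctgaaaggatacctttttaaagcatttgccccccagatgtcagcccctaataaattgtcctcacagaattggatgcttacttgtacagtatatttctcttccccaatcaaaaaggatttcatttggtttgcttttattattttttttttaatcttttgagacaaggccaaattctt
Lsm14b: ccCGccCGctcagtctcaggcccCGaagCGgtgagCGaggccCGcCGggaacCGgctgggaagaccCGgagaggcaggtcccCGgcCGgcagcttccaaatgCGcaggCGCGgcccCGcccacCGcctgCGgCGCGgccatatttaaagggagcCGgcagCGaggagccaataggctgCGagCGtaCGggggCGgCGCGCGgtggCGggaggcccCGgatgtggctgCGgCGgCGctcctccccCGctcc
The stretch upstream of Lsm14b held 34 CpG in 250 bases, whereas that upstream of Btg4 held 1 CpG and that upstream of the internal start of Patl2 held 0 CpG in the same length. The table of promoters covered 7 of the 10 genes; Eif4e1b, Ddx6 and Cnot7 had no entry. Over the whole promoter of 300 bases (250 before the start and 50 after it), CpG counts ran from 1 in Btg4 to 40 in Lsm14b and in 1 promoter of Ybx2, against a median of 7 over 32851 promoters. The letters TAATTG, a motif bound by the oocyte factor NOBOX, were found on either strand in the promoter of 1 of 7 genes, Zar1l, with 2 matches, against 8% of all promoters. The E-box letters CAGGTG were present on either strand in 5 of 7 genes, against 20.2% of all promoters. These matches describe the sequence and are not binding sites.

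The question of level was how much H3K36me3 each gene carried over its body. Of the 10 genes, 8 had a mean body level above 1, against 52.5% of all protein-coding genes, and 7 of 10 were above 1 in each replicate, against 46.5%. A level above 2 was reached by 5 of 10, against 22.7%. The median of the 10 genes was 1.99 RPKM, against 1.11 over all protein-coding genes. Short genes reached this level less often in the genome: of those under 12 kb, 37.8% were above 1, with a median of 0.606, whereas 4 of the 5 listed genes under 12 kb were above 1. Counted by window, 111 of 172 body windows were enriched, which is 64.5%, against 51.2% of the windows in the bodies of protein-coding genes and 31.8% of all valid windows. The share was 66.9% in replicate 1, 55.2% in replicate 2 and 66.3% in replicate 3, and 86 of the 172 (50%) exceeded 1 in all 3 replicates, against 19.7% of all valid windows. Of the enriched windows alone, this was 77.5%, against 62.1% of all enriched windows. Neither share was computed for windows in the bodies of protein-coding genes, so these 2 gaps do not compare like with like.

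Lsm14b, an RNA-binding protein of the Lsm14 family found in the storage granules of oocytes, had the highest level. It lies at chr2:180024987-180035465 on the plus strand, and its body level was 3.03, 4.29 and 3.55 RPKM in replicates 1, 2 and 3. All replicates were above those of each other listed gene, and the mean of 3.63 ± 0.634 (SD, n = 3) lay at the 99.8th percentile of protein-coding genes. The highest window of the gene was the second one, which read 5.70, 12.3 and 9.48 RPKM. At 9.16 ± 3.30 (SD, n = 3) it ranked 11 of 1186323 windows, and 25.1% of its bases were exonic and 2.95% were in repeats. A coding transcript of the gene starts in this window, 1.41 kb downstream of the gene's first base.

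Cpeb1, which binds the cytoplasmic polyadenylation element and controls tail length, was the longest of the set, at 108.44 kb (chr7:81347026-81455465, minus strand). Its body level was 2.10, 2.55 and 2.61 RPKM, with a mean of 2.42 ± 0.277 (SD, n = 3), and 49 of 53 windows were enriched. Cnot7, a deadenylase subunit of the CCR4-NOT complex (chr8:40492540-40515847, minus strand), had 2.03, 2.18 and 2.82 RPKM, with a mean of 2.34 ± 0.421 (SD, n = 3). All 12 of its windows were enriched, and 17729 of its bases are shared with Zdhhc2, a gene on the opposite strand. These long genes thus carried the mark along most of their annotated length.

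Zar1l, a zygote arrest protein that binds maternal mRNA (chr5:150507055-150518164, minus strand), read 1.90, 1.87 and 3.00 RPKM and averaged 2.26 ± 0.642 (SD, n = 3). Ybx2, the germ cell Y-box protein that packages stored mRNA (chr11:69935796-69941605, plus strand), read 2.14, 1.39 and 2.96 RPKM and averaged 2.16 ± 0.787 (SD, n = 3). Replicate 3 was the highest for both genes, and the spread of each was wider than the distance between them and the genes next in order. Every window of both genes was enriched, 7 of 7 in Zar1l and 4 of 4 in Ybx2. With Lsm14b and Cnot7, this made 4 of 10 genes that were enriched in every body window, against 11.3% of protein-coding genes. The first window of Ybx2, which holds its start, was only just above the threshold (1.22, 0.793 and 1.02 RPKM; 1.01 ± 0.215). Without replicate 1 it was not enriched.

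Ddx6, the RNA helicase of processing bodies that represses translation (chr9:44604892-44640731, plus strand), had 1.69, 1.65 and 2.10 RPKM, with a mean of 1.81 ± 0.251 (SD, n = 3) and 16 of 19 windows enriched. Eif4e1b, a germ cell form of the cap-binding protein (chr13:54783998-54788459, plus strand), had 1.70, 1.19 and 2.28 RPKM, with a mean of 1.72 ± 0.548 (SD, n = 3). The values of these genes overlapped. Patl2, an oocyte RNA-binding protein required for oocyte maturation (chr2:122120108-122186189, minus strand), had 1.09, 0.886 and 1.22 RPKM, with a mean of 1.07 ± 0.170 (SD, n = 3). It fell on both sides of the threshold, and without replicate 3 its mean was 0.986. Only 13 of its 34 windows were enriched.

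Below the threshold in all replicates were Btg4 and Zar1. Btg4, the adaptor that brings the CCR4-NOT deadenylase to maternal mRNA (chr9:51060901-51119875, plus strand), had 0.521, 0.555 and 0.429 RPKM over its annotated body, a mean of 0.501 ± 0.065 (SD, n = 3). Zar1, a zygote arrest protein that stabilises maternal mRNA (chr5:72576806-72581254, minus strand), had 0.181, 0.264 and 0.226 RPKM, a mean of 0.224 ± 0.042 (SD, n = 3), at the 9.88th percentile. Its 3 windows held 8 reads in all 3 libraries together (95% exact Poisson interval 3.45 to 15.8, which covers counting error only), and none was enriched. Having no enriched body window was seen in 29.7% of protein-coding genes.

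In the order of the means, 4 of 9 steps between neighbours were larger than the SD of the log2 difference between the replicates: Lsm14b over Cpeb1, Eif4e1b over Patl2, Patl2 over Btg4, and Btg4 over Zar1. The ranges of Eif4e1b and Patl2 overlapped even so, although Eif4e1b was higher in 3 of 3 replicates. The remaining steps, from Cpeb1 down to Eif4e1b, were within the spread. With 3 replicates the two-sided exact sign-flip permutation test used for each difference below cannot give a p under 0.25, so no such difference can pass 0.05, and the size, the SD and the number of replicates carry each statement.

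**Figure D1:**
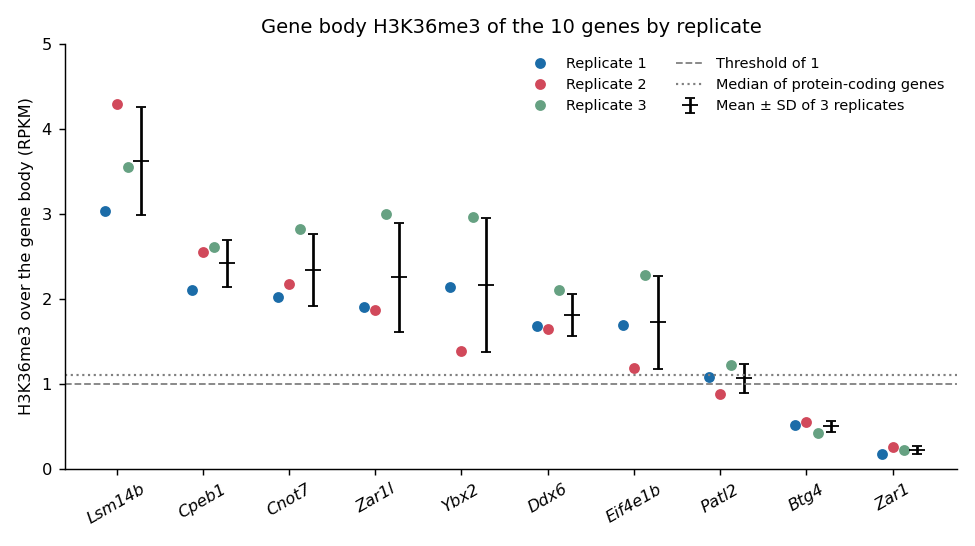
Body level of H3K36me3 (RPKM, vertical axis) of the 10 genes in each replicate (coloured points), with the mean and SD of 3 replicates beside them; the dashed line is the threshold of 1 and the dotted line the median of protein-coding genes, 1.11. Lsm14b stands highest at 3.63, a plateau of 6 genes lies between 1.72 and 2.42, and Btg4 and Zar1 lie under the threshold in every replicate.

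The annotated body of Btg4 hid a small, strong domain. Of its 30 windows, 2 were enriched, and they were the last ones of the gene (chr9:51116001-51120000). The first of them read 3.12, 7.53 and 7.45 RPKM, a mean of 6.03 ± 2.52 (SD, n = 3), and ranked 368 of all windows, while the window before it had 0.633 ± 0.612. Its left border lay 55.1 kb downstream of the GENCODE start of the gene, on the very base, 51116001, where a GENCODE coding transcript and the curated RefSeq transcript of Btg4 begin. Since windows are 2 kb wide and placed end to end, the match is no finer than the grid.

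All coding exons of Btg4 lay in these 2 windows, where the level was 2.38, 4.16 and 4.40 RPKM, with a mean of 3.65 ± 1.11 (SD, n = 3). The other 28 windows of the gene had 0.277 ± 0.123 and 0 of them were enriched. They overlap 2 genes on the opposite strand, Layn (0.353 ± 0.226) and 4833427G06Rik (0.188 ± 0.144), and the microRNA genes Mir34b and Mir34c. The choice of gene model therefore placed Btg4 near either end of the order, below Patl2 or at the level of Lsm14b. Its upstream sequence, shown above with 1 CpG, precedes the window with the highest signal.

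Patl2 also had more signal toward the end of a long gene model, but less sharply than Btg4. Its only curated RefSeq transcript begins at the annotated start of the gene. In the 5′ part of the gene model, up to its midpoint, the level was 0.671, 0.303 and 0.458 RPKM, and in the 3′ part 1.50, 1.47 and 1.99 RPKM, a log2 difference of 1.64 ± 0.51 (SD, n = 3) that was positive in 3 of 3 replicates. The first window above 1 lay 31.2 kb from the annotated start, beside B2m (the light chain of class I major histocompatibility molecules, 1.33 ± 0.290 over its own body), a gene on the opposite strand inside the Patl2 model. Trim69, also inside it on the opposite strand, had 0.431 ± 0.208 and 0 enriched windows.

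The 13 enriched windows of Patl2 fell in 4 runs. The run with the most of them, 6, began 54.2 kb downstream of the annotated start, at 122132000, and a predicted RefSeq transcript starts 1.69 kb inside that border, at 122130311. All coding exons lay in the last part of the gene, from 56.7 kb onward. The 5 windows with a coding exon read 1.79, 1.43 and 3.86 RPKM, a mean of 2.36 ± 1.31 (SD, n = 3), and all were enriched, against 0.843 ± 0.106 in the other 29 windows, of which 8 were enriched. The run did not stop at the end of Patl2 but went on for 62.1 kb, across Spg11 (2.27 ± 0.192, 31 of 32 windows enriched), a gene on the same strand. It was 20 kb long without replicate 1. In each of the alternatives without replicate 2 and with a single window bridged, it began 10 kb closer to the annotated start, away from the predicted start. With the call made in each replicate, a different run of 6 kb held the most windows, which also began there and ended inside the gene.

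Over the set, 44 of 49 windows with a coding exon of their gene were enriched, which is 89.8%, against 62% of all windows with a coding exon. Of the 123 body windows without one, 67 were enriched, or 54.5%. Over all protein-coding genes, 51.2% of body windows were enriched, counted with and without a coding exon. The share without a coding exon was not computed there, so the contrast is not shown to be particular to the set. Measured over coding windows, 9 of 10 genes were above 1, against 55% of protein-coding genes, and Zar1 was the exception at 0.224 ± 0.042. This measure was chosen after the values of Btg4 had been seen.

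The coding windows of Zar1 were its whole body, and no annotated start gave a different picture. GENCODE and RefSeq place 4 starts of coding transcripts there, all in the same window (0.272, 0.396 and 0 RPKM; 0.223 ± 0.203). The upstream flank had 0.243 ± 0.310 and the downstream flank 0.515 ± 0.212, and the only enriched window of the flanks lay 12.3 kb from the start, beyond the end of the gene. The neighbouring gene Gm5868 had 0.298 ± 0.260. Against its paralog Zar1l, on the same chromosome, Zar1 had a log2 difference of -2.84 ± 0.41 (SD, n = 3; lower in 3 of 3 replicates, exact p = 0.25), with -3.32 without a pseudocount, -1.91 with a pseudocount of 0.5 and -2.19 with medians over windows.

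The borders of the other domains were next compared with the annotated ends. With all 3 replicates, Ybx2 and Ddx6 had domains that kept to the gene. The run over Ybx2 was 8 kb long, from 1.80 kb before the start to 0.395 kb past the end, each under 1 window, and the 2 windows next to it on each side averaged 0.661 ± 0.162 upstream and 0.873 ± 0.487 downstream. None of the 10 flank windows of Ybx2 was enriched, and Slc2a4, the glucose transporter gene that follows it on the opposite strand, had 0.515 ± 0.314. Without replicate 2 the run over Ybx2 was 12 kb long, from 3.8 kb before the start to 2.4 kb past the end. Without replicate 3 it was 12 kb long and passed the end by 4.4 kb, into Slc2a4. The run over Ddx6 was 32 kb long at 2.04 ± 0.377, began 1.11 kb inside the gene and ended 2.73 kb before its end. The 2 windows before it averaged 0.570 ± 0.348 and the 2 windows after it 0.645 ± 0.601.

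In Zar1l, Lsm14b and Cnot7 the run continued into a neighbouring gene. The run over Zar1l was 20 kb long and passed its start by 7.84 kb into Brca2, a DNA repair gene transcribed the other way (2.43 ± 0.235). With thresholds of 1.5 and 2 and with the call made in each replicate, the run passed the start by 1.84 kb and did not reach Brca2. That over Lsm14b was 20 kb long and included part of Psma7, a proteasome subunit gene (1.50 ± 0.274). Without replicate 1, with thresholds of 1.5 and 2 and with the call made in each replicate, it ended before the end of Lsm14b and did not reach Psma7. That over Cnot7 was 42 kb long, and passed its start by 14.2 kb through Vps37a (2.10 ± 0.230), with which Cnot7 shares 4065 bases on the opposite strand. It passed the start by 2.15 kb without replicate 1 and with a threshold of 1.5, and was 8 kb long with the call made in each replicate. Zdhhc2, also on the opposite strand (0.787 ± 0.125, 12 of 43 windows enriched), overlaps Cnot7 over 17729 bases. ChIP signal has no strand, so the part of each gene cannot be told apart there. The start window of Cnot7 read 3.67, 6.74 and 3.72 RPKM, a mean of 4.71 ± 1.76, and ranked 2648 of all windows. A GENCODE coding transcript and 1 curated RefSeq transcript of Cnot7 start in this window. A set of 3 curated RefSeq transcripts starts 4.09 kb further on, in a window with 2.09 ± 0.831.

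Cpeb1 was covered by 3 runs. Its start window was not enriched (1.09, 0.396 and 0.677 RPKM; 0.720 ± 0.347), the signal rose to 2.90 in the next window, and a break of low windows and windows not in the valid set lay from about 44.5 kb to 50.5 kb from the start. The longest run, of 80 kb, held 29 of 53 body windows at 2.56 ± 0.320 and went 23.0 kb past the end, into Pde8a. The highest window of Cpeb1 read 2.72, 8.72 and 4.06 RPKM, a mean of 5.17 ± 3.15, and lay 84.5 kb from the start. A curated RefSeq transcript begins in the adjacent window, 83.0 kb from the start, at 3.00 ± 0.836, and both windows carried an H3K4me3 call.

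Eif4e1b had the reverse arrangement, with more H3K36me3 before the gene than in it. The run of 10 kb began about 8 kb upstream of the start and ended 2.46 kb before the end of the gene, at 4.26 ± 1.41 (SD, n = 3). The highest window, centred about 5 kb upstream, read 4.89, 4.36 and 9.14 RPKM and ranked 323 of all windows. This stretch overlaps Gm16249, an antisense transcript that starts close to Eif4e1b and runs away from it (4.49 ± 1.42, 4 of 4 windows enriched). Within the gene the 5′ part had 2.65, 1.78 and 4.06 RPKM and the 3′ part 0.747, 0.595 and 0.508 RPKM.

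The log2 difference, 3′ minus 5′, was -1.97 ± 0.71 in Eif4e1b and was negative, in 3 of 3 replicates. Downstream, Tspan17 on the same strand had 1.77 ± 0.218, so the last windows of Eif4e1b were a trough between marked regions.

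**Figure D2:**
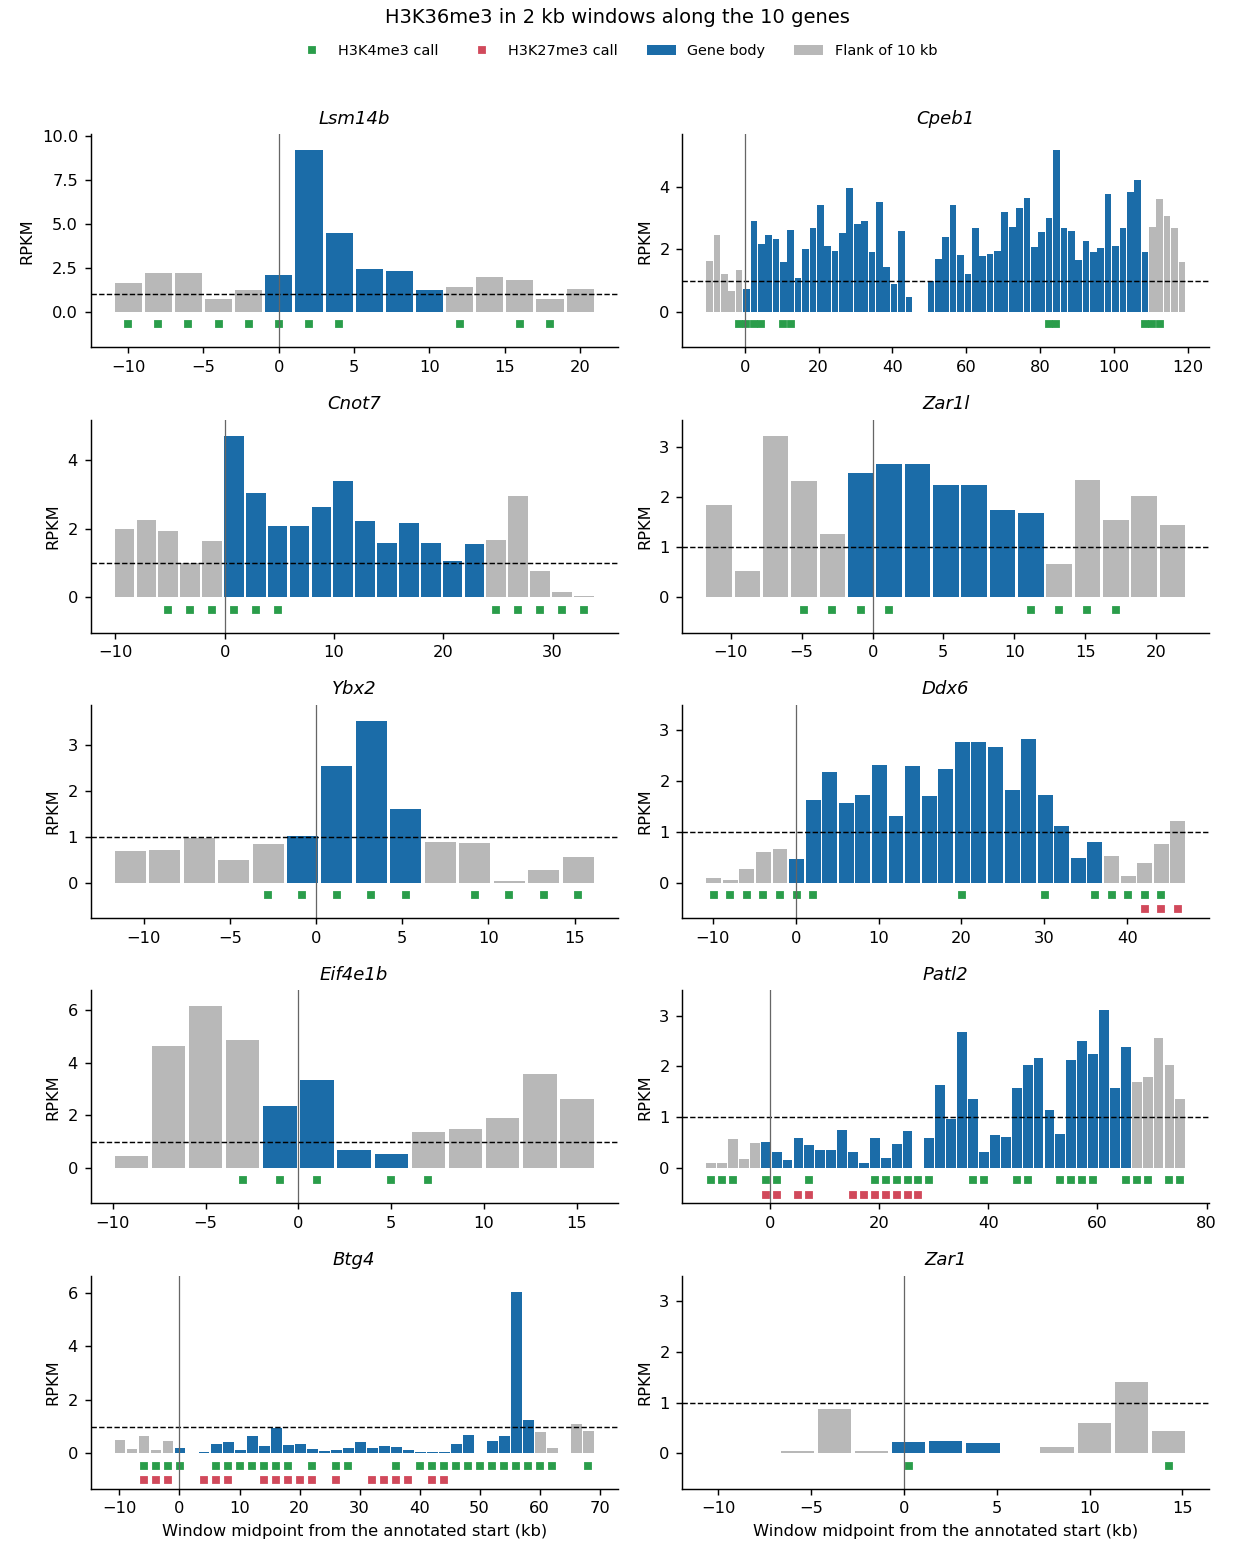
Mean H3K36me3 (RPKM, vertical axes differ) of 3 replicates in 2 kb windows by distance from the annotated start in kb, in the direction of transcription; blue bars are body windows, grey bars flank windows, the dashed line is the threshold of 1, and squares below 0 mark windows called for H3K4me3 (green) or H3K27me3 (red). Places without a bar are at 0 or hold no valid window. Btg4 shows 1 tall window at its end (6.03), Patl2 rises after about 31 kb, Eif4e1b is highest before its start (6.13), and Zar1 stays low throughout.

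Body and flanks were then set side by side in the same libraries, as log2 ratios with a pseudocount of 0.1 RPKM. The body was above the flanks in 3 of 3 replicates in 5 of 10 genes, against 43.1% of protein-coding genes, and it was above them in no replicate in 2 of 10 genes, Eif4e1b and Zar1, against 20.3%. Ddx6 had the highest mean ratio: its body had 1.69, 1.65 and 2.10 RPKM and its flanks 0.462, 0.436 and 0.508 RPKM, a log2 ratio of 1.74 ± 0.10 (SD, n = 3). Ybx2 had 1.58 ± 0.60, a gap to Ddx6 smaller than this SD, and without replicate 2 it was above Ddx6 (1.82 against 1.76). They were followed by Lsm14b with 1.18 ± 0.16, Cnot7 with 0.65 ± 0.28 and Cpeb1 with 0.19 ± 0.04. For these 5 genes the exact p was 0.25, the smallest that 3 replicates allow.

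The flanks of Cpeb1 were themselves marked, at 2.10 ± 0.186, with 9 of 10 windows enriched. Eif4e1b had a ratio of -0.79 ± 0.25, lower in 3 of 3 replicates, with flanks that included the upstream domain described above. With the flank windows inside other genes left out, 2 windows remained and the ratio was 0.21. Zar1 had -0.51 ± 0.66, with replicate 2 at 0. The ratios of Zar1l (0.35 ± 0.65), Btg4 (-0.06 ± 0.33) and Patl2 (-0.00 ± 0.42) were smaller than their spread.

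Along the body, H3K36me3 typically increases toward the end of a transcribed gene, and the parts on either side of the midpoint were compared in the 9 genes with at least 4 windows. The 3′ part was higher in 3 of 3 replicates in 4 of 9 genes, against 41.3% of protein-coding genes: Patl2, Btg4, Cpeb1 and Ddx6. In Btg4 the 5′ part had 0.283 ± 0.168 and the 3′ part 0.720 ± 0.044, a log2 difference of 1.22 ± 0.84. In Cpeb1 the difference was 0.29 ± 0.12 and in Ddx6 0.18 ± 0.11. The 3′ part was lower in 3 of 3 replicates in 3 of 9 genes: Eif4e1b, Lsm14b (-1.33 ± 0.57) and Cnot7 (-0.79 ± 0.36). In Zar1l the parts were equal in replicate 1, at 1.90 RPKM, and the 3′ part was lower in replicates 2 and 3. Of protein-coding genes, 12.2% had the 3′ part higher in no replicate, with ties not set apart.

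In Lsm14b the 5′ part read 3.76, 6.47 and 5.53 RPKM and the 3′ part 2.31, 2.11 and 1.58 RPKM, and the ranges did not overlap. In Cnot7 the 5′ part read 2.33, 3.04 and 3.61 RPKM and the 3′ part 1.72, 1.32 and 2.03 RPKM. In Eif4e1b, Lsm14b and Cnot7 the highest body window was the first or the second of the gene. Ybx2 (0.40 ± 0.46), with a tie in replicate 2, and Zar1l (-0.43 ± 0.48) had no direction shared by all 3 replicates.

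**Figure D3:**
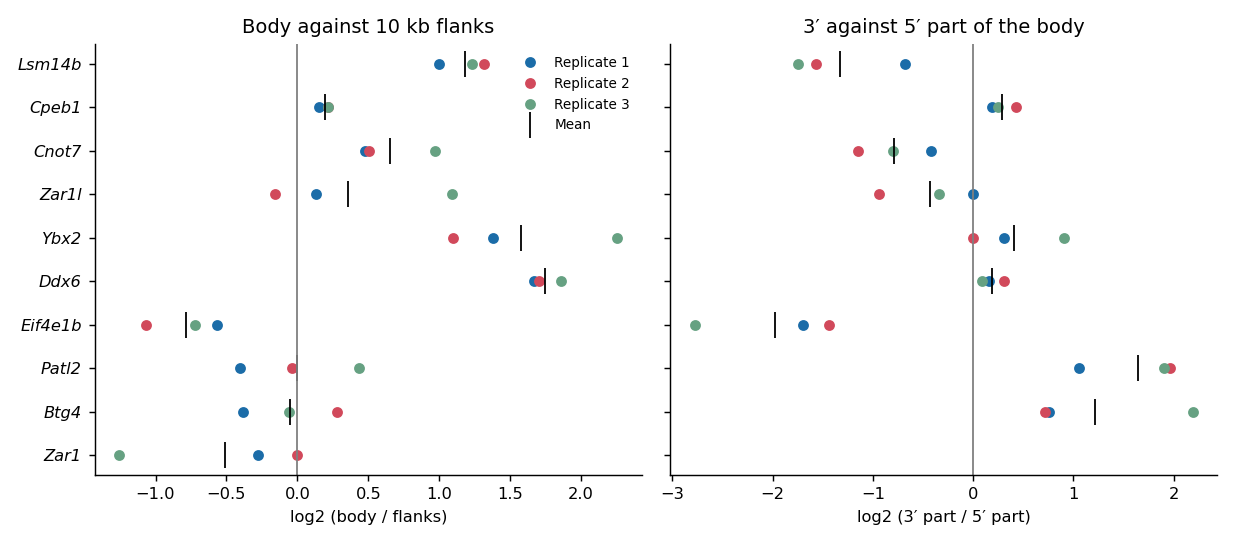
Log2 ratios (horizontal axes) of body against 10 kb flanks (left) and of the 3′ against the 5′ part of the body (right), by gene, with a point per replicate and a bar at the mean of 3 replicates; Zar1 has too few windows for the right panel. In the left panel Ddx6 (1.74), Ybx2 (1.58) and Lsm14b (1.18) lie well above 0, and in the right panel Eif4e1b (-1.97) has the lowest mean.

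The calls of the other marks came from earlier libraries of the same laboratory, 1 call per window and without replicates. The start window carried H3K4me3 in 10 of 10 genes, against 78% of protein-coding genes. It carried H3K27me3 in 1 of 10, Patl2, against 32.9%, and H3K36me3 in 5 of 10, against 22.8%: Zar1l, Ybx2, Eif4e1b, Lsm14b and Cnot7. In these 5 genes the mark of promoters and the mark of gene bodies were called in the same window, which was the case in 17% of start windows of protein-coding genes. The H3K36me3 call at the start of Ybx2 rests on a mean of 1.01 RPKM. Both calls within 2 kb do not show that they lie on the same nucleosome or in the same oocyte.

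Over the bodies, H3K4me3 was called in 70 of 172 windows (40.7%, against 26.2%). Many of these lay in Btg4 (22 of 30 windows) and Patl2 (18 of 34), whereas Cpeb1 had 8 of 53, so the share does not describe each gene. All 4 windows of Ybx2 carried both H3K4me3 and H3K36me3, the first of them near the threshold. So did 3 of 7 windows of Zar1l, 3 of 6 of Lsm14b and 3 of 12 of Cnot7. Of the 111 enriched windows, 34 had H3K4me3 (30.6%, against 14.1% of enriched windows in bodies of protein-coding genes). Of the windows with H3K4me3, 2 of 22 in Btg4 and 7 of 18 in Patl2 were enriched for H3K36me3, and in Btg4 these were both of its enriched windows.

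H3K27me3 was called in 26 of 172 body windows (15.1%, against 25.9%), 15 in Btg4 and 11 in Patl2, and in none of the other 8 genes. Having no such window was seen in 56.1% of protein-coding genes. In Btg4 and Patl2 the windows with H3K27me3 lay in the upstream part of the gene model that was not enriched for H3K36me3. They lay within 44.1 kb of the start in Btg4 and within 27.2 kb in Patl2. Of them, 10 in Btg4 and 8 in Patl2 were also called for H3K4me3. No enriched body window of the set carried H3K27me3 (0 of 111), against 6.2% of enriched windows in bodies of protein-coding genes, and adjoining windows of 1 gene are not independent. In the downstream flank of Ddx6, 1 window (1.21 RPKM) was called for both H3K36me3 and H3K27me3. Zar1 had neither mark beyond its start: 1 of 3 windows was called for H3K4me3, and 2 had no call.

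The base composition of the windows was compared as a description. Enriched body windows had a median GC content of 42.05%, 13 CpG and 26.9% of bases in repeats. The other body windows had 42.8%, 16 CpG and 23.7%. Exons covered a median of 6.3% of an enriched window and 3% of the others.

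Several of the genes are germ cell members of families whose other members are used in many tissues, and 15 pairs of a listed gene and a paralog were compared. Of the 14 paralogs that are not themselves listed, 12 were above 1, against 52.5% of protein-coding genes. The listed gene was higher in 3 of 3 replicates in 3 pairs, lower in 3 of 3 in 5 pairs, and mixed in 7 pairs. Each of the 8 one-sided pairs had the smallest p the exact test allows, 0.25.

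Lsm14b (3.63) exceeded Lsm14a (2.22, 2.12 and 2.41 RPKM; 2.25 ± 0.145) by 0.65 ± 0.29 on the log2 scale. Cpeb1 exceeded Cpeb2 (1.22, 1.57 and 1.11 RPKM; 1.30 ± 0.242) by 0.86 ± 0.27, but not Cpeb3 (2.22 ± 0.163) or Cpeb4 (2.17 ± 0.161) beyond the spread. Cnot7 exceeded Cnot8 (1.31, 1.49 and 1.35 RPKM; 1.38 ± 0.093), the other copy of this deadenylase subunit, by 0.71 ± 0.26. Patl2, over its whole model, was below Patl1 (1.71 ± 0.118), the decapping factor, with a log2 difference of -0.64 ± 0.20.

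Eif4e1b was below Eif4e2 (2.91 ± 0.458), a cap-binding repressor, with a log2 difference of -0.76 ± 0.56, while the differences from Eif4e (1.65 ± 0.083) and Eif4e3 (2.47 ± 0.178) had mixed signs. Ybx2 differed from neither Ybx1 (1.91 ± 0.017) nor Ybx3 (2.76 ± 0.308) in a direction shared by the replicates. Btg4 was below Btg3 (1.28 ± 0.224), with a log2 difference of -1.19 ± 0.39, and below Btg1 (0.733 ± 0.078), with -0.47 ± 0.22, and had mixed signs against Btg2 (0.256 ± 0.273). The Btg4 values here are those of the whole gene model. Its 2 coding windows, at 3.65, were above all 3 of these paralogs, a comparison made after the values were seen.

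**Figure D4:**
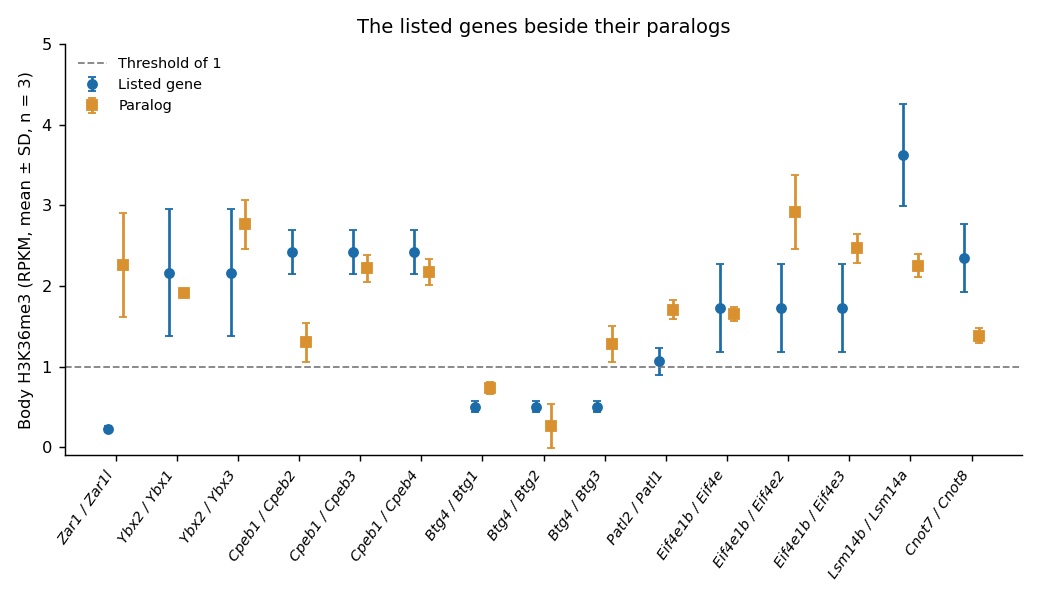
Body H3K36me3 (RPKM, mean ± SD of 3 replicates) of each listed gene (circles) beside its paralog (squares) in 15 pairs; the dashed line is the threshold of 1. Lsm14b, Cnot7 and Cpeb1 stand above Lsm14a, Cnot8 and Cpeb2, and Zar1 (0.224) stands far below Zar1l (2.26).

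The listed genes act with many partners, and 74 related genes in 4 lists were measured in the same way. Of these, 65 were above 1, or 87.8%, against 52.5% of protein-coding genes, with a median of 2.07 RPKM. In the list of storage and repression, 16 of 18 were above 1 (median 2.06). Highest were Eif4e2 and Ybx3, and lowest were Msi1 (0.287 ± 0.101) and Igf2bp1 (0.348 ± 0.064), RNA-binding proteins of neural and fetal tissue, with H3K27me3 called in 13 of 14 and 25 of 25 windows. Msi2, the relative of Msi1, had 1.24 ± 0.310 with 106 of 191 windows enriched and 180 called for H3K27me3.

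In the list of cytoplasmic polyadenylation, all 14 were above 1 (median 2.17). Highest were the embryonic poly(A)-binding protein gene Pabpc1l (2.81 ± 0.492) and Pabpc4 (2.54 ± 0.428), and lowest were Cpeb2 and Pabpn1l (1.49 ± 0.046). In the list of deadenylation, 15 of 20 were above 1 (median 1.92), with Pan3 (2.62 ± 0.099) and Cnot10 (2.50 ± 0.401), subunits of the PAN2-PAN3 and CCR4-NOT deadenylases, at the top. Lowest were Zfp36l1 (0.057 ± 0.098), a protein that binds AU-rich elements, and the antiproliferative gene Btg2, both short genes of 4 and 3 windows.

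In the list of decapping, uridylation and decay, 20 of 22 were above 1 (median 2.203). Highest were Edc4 (3.28 ± 0.475), the scaffold of the decapping complex, and Exosc10 (2.80 ± 0.202), a nuclease of the RNA exosome. Lowest were the decapping cofactor Dcp1b (0.415 ± 0.131) and the uridylyl transferase Tut4 (0.419 ± 0.138), which had 2 of 51 windows enriched and 2 called for H3K27me3. The listed genes had a median close to those of the lists, and their spread, from 0.224 to 3.63, was as wide as that of all 74 related genes (0.057 to 3.28).

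The label of the sample was checked with markers of oocytes and of the granulosa cells that surround them. All 9 oocyte markers were above 1 (median 1.99), against 52.5% of protein-coding genes, from Oosp1 (1.24 ± 0.174) to Bmp15 (3.73 ± 1.03). Of the 9 granulosa markers, 4 were above 1 (median 0.714): Nr5a2 (2.02 ± 0.204), Kitl (1.46 ± 0.110), Amh (1.39 ± 0.675) and Inhba (1.05 ± 0.326). This share is near that of all protein-coding genes, so these markers do not separate the label sharply. The others were not above 1: Cyp19a1 (0.714 ± 0.084), Inha (0.534 ± 0.357), Foxl2 (0.420 ± 0.303), Fshr (0.353 ± 0.031) and Lhcgr (0.342 ± 0.095). The part of any granulosa cell carried into the pools in the values above was not tested.

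**Figure D5:**
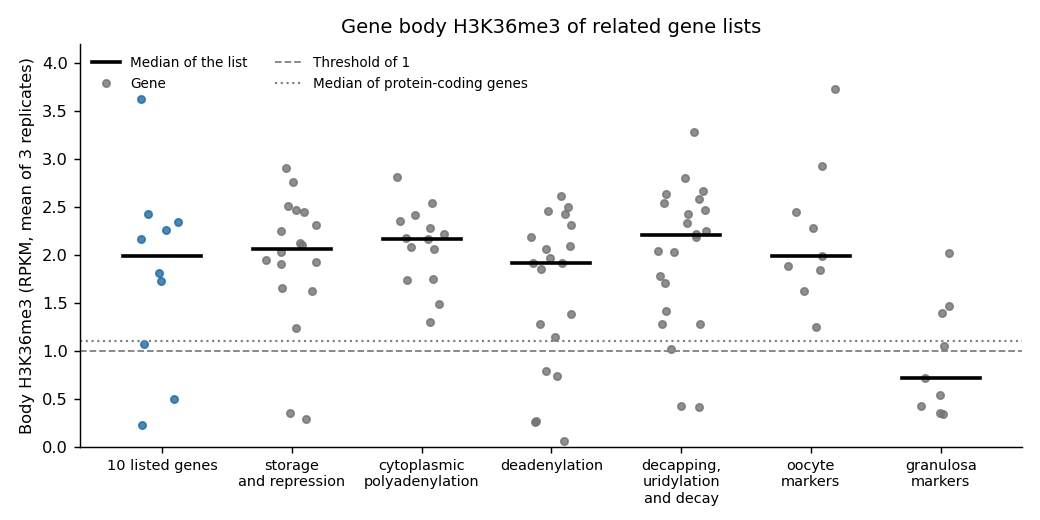
Body H3K36me3 (RPKM, mean of 3 replicates) of the 10 listed genes (blue), of 4 lists of related genes and of oocyte and granulosa cell markers (grey points), with the median of each list as a bar; the dashed line is the threshold of 1 and the dotted line the median of protein-coding genes, 1.11. Medians run from 1.92 to 2.203 in the 4 lists and 0.714 in the granulosa markers.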

How the data were processed

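Reads were trimmed by the authors, aligned to GRCm38 with Bowtie2 2.2.9 (per the labels), and quantified in SeqMonk over 2 kb windows placed end to end, leaving out windows with extreme input signal. Whether duplicates were removed is not given in the sources used here. The deposited values are RPKM by the authors' name, though their step fits CPM per window more closely, 1 column per replicate and not pooled. All values were whole multiples of the value of 1 read (0.136, 0.396 and 0.338 RPKM in replicates 1, 2 and 3; 100% whole within 0.0001 reads), so they scale with reads per library in windows of fixed size, and a value above 1 needs 8, 3 and 3 reads. The deposited mark calls give the enriched marks of each window, and the H3K36me3 call differed in 0 windows from a mean above 1.

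The 10 genes and all lists were chosen with earlier results of these data known. A level is the mean over the windows that overlap a gene, per replicate, given as mean ± SD of 3 replicates. A run is a stretch of neighbouring windows above 1; the run with most body windows was taken as the domain. Log2 ratios used a pseudocount of 0.1 RPKM and an exact permutation test that flips the signs of the replicates, two-sided. Shares of protein-coding genes were computed in the same way over autosomes and X. Named genes were the 10 genes, their paralogs, the 2 highest and 2 lowest of each related list, and neighbours in which a border or mark lay; Msi2, Layn, 4833427G06Rik, Mir34b and Mir34c, Slc2a4, Trim69 and Gm5868 were named after their values were seen. Sequences were read from the RefSeq promoter table and, with samtools 1.23.1, from the genome; transcript starts are from GENCODE mouse release 21 and RefSeq. Computation used Python 3.11.15, numpy 2.4.6, pandas 2.3.3 and scipy 1.17.1. The measures were tested on simulated data. Alternatives left out each replicate and changed the window assignment, the threshold, the pseudocount, the flanks, the gene model and the run rule.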

Additional observations from a re-analysis of the deposited data

How the results depend on the processing

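No paired analysis was possible because the series has 1 group, so no groups share replicate numbers; differences between regions and genes were taken within each replicate. The 10 genes had 8 above 1; a threshold of 2 left 5, and leaving out each replicate gave 7 to 8. With medians over windows 7 were above 1, Patl2 was at 0.675 and Btg4 at 0.136. Of the 74 related genes, 42 were above a threshold of 2, against 65 above 1. Of all protein-coding genes, 22.7% were above 2 and 52.5% above 1. Of the body windows, 43.0% were above a threshold of 2 and 50% were above 1 in each replicate, against 64.5%; bodies drawn from the RefSeq start, an alternative added after seeing the data, gave 77.1%. Domains that passed the start by more than 1 window numbered 4 (Zar1l, Eif4e1b, Lsm14b and Cnot7), 2 with a threshold of 1.5, 1 with a threshold of 2 and 2 with the call made in each replicate, and 3 to 5 when a replicate was left out. Pairs with the listed gene above its paralog in every replicate numbered 3, and 3 to 6 when a replicate was left out, with 6 without replicate 1, where 2 replicates must share the sign in place of 3.

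The sign changed for the log2 body-to-flank ratio of Btg4 (-0.22 to 0.11 leaving out a replicate, 0.20 with flanks of 5 kb, 0.03 without windows at 0 reads, 2.56 with the body from the RefSeq start), Patl2 (-0.22 to 0.20 leaving out a replicate, 0.00080 without a pseudocount, 0.04 without windows at 0 reads), Zar1l (-0.014 to 0.61 leaving out a replicate), Zar1 (0.036 with flanks of 5 kb) and Eif4e1b (0.21 with flank windows outside other genes). It also changed for the pairs Ybx2 and Ybx1 (-0.14 to 0.38 leaving out a replicate, -0.12 with medians over windows), Eif4e1b and Eif4e (-0.19 without replicate 3) and Btg4 and Btg2 (-0.82 with medians). The cause was not tested. Domain lengths were the least stable values: the run over Lsm14b was 12 kb without replicate 1 and that over Zar1l 32 kb without replicate 3, and bridging a single window lengthened that of Zar1l to 456 kb and that of Cpeb1 to 188 kb. Patl2 has no flank window outside other genes, so that ratio could not be computed. Since 3 reads are enough to pass 1 in replicates 2 and 3, single windows near 1 were not resolved.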
